A study of Mus musculus with 24 samples.

Results

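Heme is made in mitochondria and cytosol by a chain of enzymes, and 9 mouse genes of its synthesis and breakdown were examined for sites of Rev-erbα, a clock repressor of the nuclear receptor family encoded by Nr1d1. They are Alas1, Alas2, Alad, Uros, Urod, Cpox, Ppox and Fech for synthesis and Hmox1 for breakdown, chosen by name out of 22350 protein-coding genes of the annotation. All listed peaks (eWAT and brain) and ChIP-exo borders (liver, described below) from 20 kb upstream to 20 kb downstream of each gene body were collected. The mm9 genome build and its GENCODE vM1 gene models were used. Of the 24 samples (16 groups) in the series, 5 libraries of 3 groups were used, and the other 19 samples (13 groups) were not analysed here. ChIP-seq against Rev-erbα gave a peak list for eWAT (epididymal fat, 2 libraries) and another for brain (1 library, from the ventral tegmental area). ChIP-exo against Rev-erbα, a form of ChIP that digests the DNA with exonucleases until the bound protein stops them, gave a list of stop positions for liver (2 libraries), called borders, each on the plus or the minus strand of the genome. Per the labels, all mice were of strain C57BL/6 and of genotype C57BL/6J Wild Type, tissues were taken at ZT10 (zeitgeber time 10, that is 10 h after lights on), and the same antibody against Rev-erbα was used throughout. The ages of the mice were not stated in the labels.

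The pathway starts with 5-aminolevulinate synthase, whose housekeeping form Alas1 sets the rate of heme synthesis in liver and most tissues and whose other form, Alas2, serves red cell precursors. Intermediates are then built into a porphyrin ring, iron is inserted by ferrochelatase, and heme oxygenase opens the ring again. Rev-erbα is itself a heme-binding protein, and bound heme favours its recruitment of the NCoR and HDAC3 corepressor, so that heme is both a product of these genes and a ligand of the receptor. Rev-erbα binds DNA at the half-site AGGTCA, alone with an A/T-rich extension before it (RORE) or as 2 half-sites in tandem.

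There were 9016 eWAT peaks and 10687 brain peaks, all 150 bp wide. Of the liver list, 245086 borders lay on chromosomes 1 to 19 and X. Each group had 1 list and no value per replicate, so no spread between animals and no test could be had. Counts of genes or peaks with a site are set beside the same share over all genes or all peaks, unless stated otherwise. Sequencing depth was unknown. Scores and signals are the authors' own and were ranked only within a list, and a rank given for a tied score is the best of the tie. The lists hold no expression values, so the tissue labels were not checked against marker genes, and whether a nearby gene was regulated was not measured. A window also holds neighbouring genes, so the protein-coding gene with the nearest annotated start is named for each peak.

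Brain peaks lay in the windows of 6 of the 9 heme genes (Alas1, Alad, Uros, Urod, Ppox and Hmox1), against 41.5% of all protein-coding genes. Peaks of eWAT lay in the windows of 3 of the 9 (Alas1, Alad and Urod), against 28.7% of all genes, and those 3 also had a brain peak. The windows of Alas2, Cpox and Fech held no peak from either list. How many of all genes had both kinds of peak, or neither, was not computed. In liver, all 9 windows held borders, between 7 at Alas2 and 91 at Alas1 and 277 in all, against 87.7% of all genes with at least 1 border. A border pair was defined as a plus-strand border followed by the next minus-strand border 5 to 60 bp downstream. Several plus borders can share 1 minus border, so pairs are not all separate sites. All 9 windows held at least 1 pair, 47 in all, against 51.0% of all genes. The shares are over 9 genes whose windows of 44.4 to 72.5 kb bracket the median window of 55.4 kb.

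**Figure D1:**
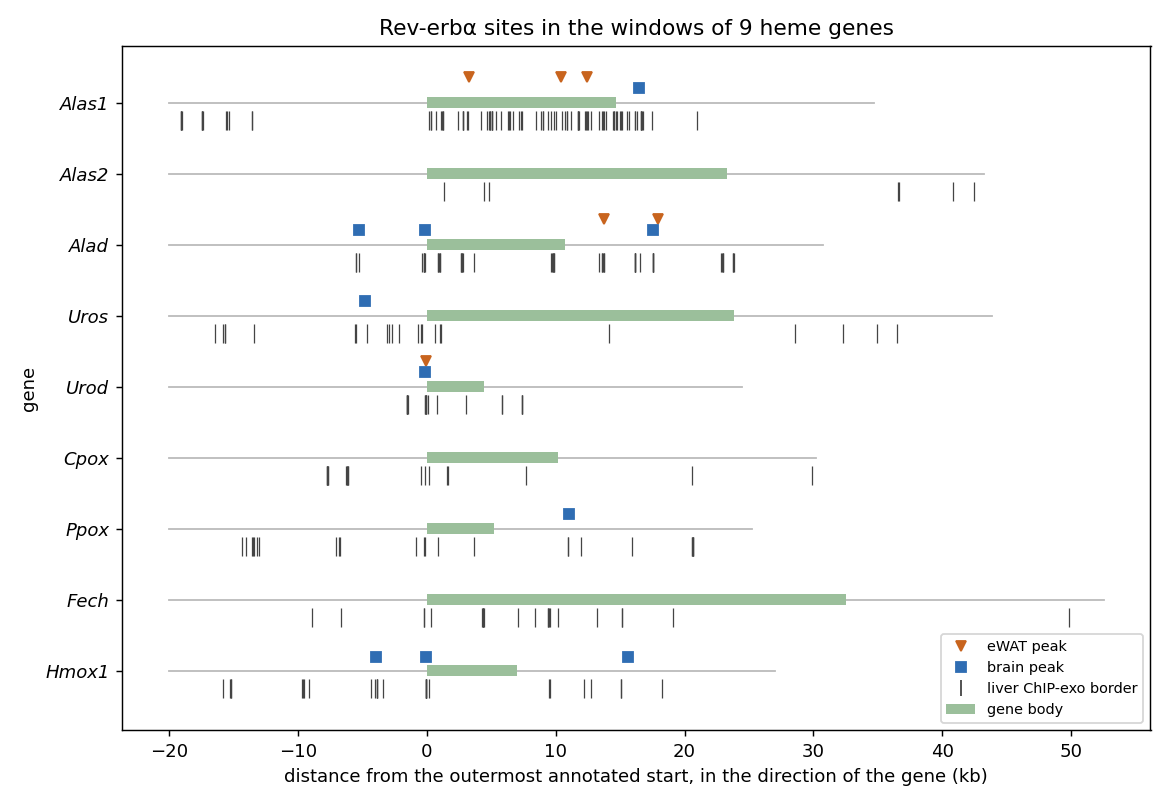
Rev-erbα sites in the windows of the 9 heme genes, drawn by distance (kb) from the outermost annotated start in the direction of the gene; triangles are eWAT peaks, squares are brain peaks, ticks are liver borders and the thick bar is the gene body. Of the 91 borders of Alas1, 61 lie along its gene body, whereas 19 of the 27 borders of Hmox1 lie upstream of the gene.

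Fewer sites lay at the heme genes' own starts. Within 1 kb of a start of a protein-coding transcript, eWAT peaks were found at 1 of the 9 genes (Urod), against 3.06% of all genes. Brain peaks were found there at 3 of the 9 (Alad, Urod and Hmox1), against 17.7%. Liver border pairs were found there at 4 of the 9 (Alad, Uros, Urod and Hmox1), against 18.8%. Of the 16 peaks in the windows, 9 had a heme gene as the gene with the nearest start, 4 of 6 in eWAT and 5 of 10 in brain, and the other 7 lay nearer to a neighbour. The same share over the windows of all genes was not computed, so whether 9 of 16 is high or low is unknown.

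Alas1, on the minus strand of chromosome 9 (106135786 to 106150457), held the highest-scoring eWAT peak of the 9 genes. All 3 of its eWAT peaks lay in introns of the gene, 12438, 10421 and 3254 bp downstream of the outermost start, and none lay at that start. Inner transcripts that the annotation lists within the gene start 621 to 1396 bp from their centres. Their scores were 69.9, 21.3 and 12.2, which placed them at ranks 121, 2072 and 5848 of the 9016 eWAT peaks, so 1.33% of the list scored higher than the first. The 3 sequences are printed because they are the fat sites of the rate-limiting gene. They run along the plus strand of mm9, with the searched motifs in capitals: the E-box CACGTG in the first, AGGTCA read on the minus strand (TGACCT) in the second, and TGACCT overlapping TGACNNNGC, the core of the NRF2 and BACH1 element, in the third.
Alas1 eWAT chr9:106137945-106138094: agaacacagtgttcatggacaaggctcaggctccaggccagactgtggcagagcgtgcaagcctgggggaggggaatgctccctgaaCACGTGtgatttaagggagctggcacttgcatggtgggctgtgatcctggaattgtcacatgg
Alas1 eWAT chr9:106139962-106140111: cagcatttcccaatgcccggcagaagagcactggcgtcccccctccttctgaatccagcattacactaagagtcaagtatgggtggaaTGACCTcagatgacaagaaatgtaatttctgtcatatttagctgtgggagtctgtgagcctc
Alas1 eWAT chr9:106147129-106147278: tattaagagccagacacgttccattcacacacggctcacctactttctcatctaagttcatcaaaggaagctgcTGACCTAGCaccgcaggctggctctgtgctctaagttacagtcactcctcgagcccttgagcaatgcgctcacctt

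The same intronic positions carried liver borders. Within 100 bp of the centre of the first eWAT peak lay a plus border 14 bp before it (signal 2.19, p = 0.0176 in the authors' deposited table) and a minus border 54 bp after it (signal 1.08, p = 0.0379). They lay too far apart to count as a pair. The second peak had 1 liver border and the third had 2, again unpaired. Brain differed in place: its single Alas1 peak, chr9:106133914-106134063, lay beyond the 3′ end of the gene, 16469 bp downstream of the start, with a score of 21.8 (rank 6985 of 10687) and no liver border within 100 bp. That score was shared by 2984 brain peaks, whose ranks run to 9968.

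In liver the Alas1 window held 91 borders, 43 on the plus and 48 on the minus strand. At 1.66 borders per kb it was the 11th densest of the 22350 windows, against a median of 0.135 per kb. The borders followed the gene: 61 lay in the gene body (42 in introns and 19 in exons), and 16 of the 17 downstream borders lay within 3 kb of its end. The remaining 13 lay upstream, the nearest 13533 bp from the start. The body density of 4.16 borders per kb was 6th among 19060 genes of 2 kb or more, whose median was 0.109. Of the 91 borders, 76 had a signal above the list median of 0.471, but their p-values ran from 0.00702 to 0.0496 and 8 were 0.01 or less. They formed 8 pairs, of which 5 lay nearest to an Alas1 start.

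The strongest Alas1 pair was not among the intronic borders. It lay 15525 bp upstream of the start, between genes, with signals of 3.98 on the plus and 2.91 on the minus strand. Its sum of 6.90 placed it at rank 496 of 26535 pairs, the best rank of any pair in the 9 windows. The next 2 pairs by summed signal lay in introns, 13636 bp (sum 3.18, rank 2703) and 11720 bp (sum 3.09, rank 2890) downstream of the start. The pair with the sum of 3.18 had AGATAA outside its borders, in the 10 bp searched on each side. This motif was in 2.34% of all pairs. The upstream pair is printed with 10 bp on each side and with capitals from the plus to the minus border. It was chosen for the highest summed signal in the window, and whether it acts on Alas1 was not tested. None of the searched motifs was found in it.
Alas1 liver pair chr9:106165968-106165997: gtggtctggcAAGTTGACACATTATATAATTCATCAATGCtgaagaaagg

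**Figure D2:**
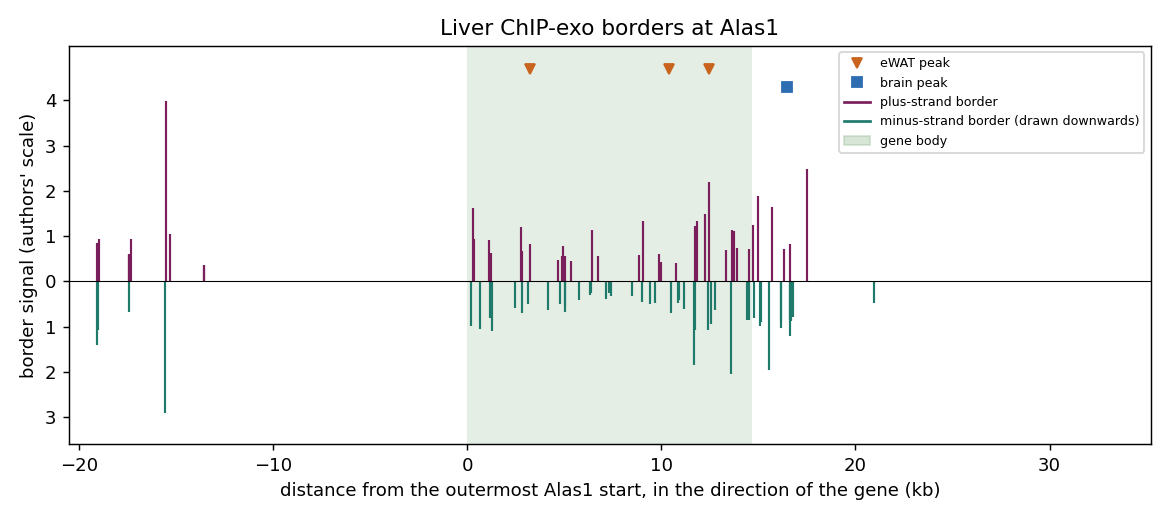
Liver borders in the Alas1 window by distance (kb) from the outermost start in the direction of the gene, with bar length giving the border signal on the authors' scale (plus strand upwards, minus strand downwards); markers show the 3 eWAT peaks and the brain peak, and shading the gene body. The tallest bars are the 3.98 and 2.91 borders 15.5 kb upstream, and lower borders run along the whole gene body.

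Alas2, the erythroid synthase on chromosome X (146981918 to 147005181), was the sparsest of the 9. Its window held 0 eWAT peaks, 0 brain peaks and 7 liver borders, 0.111 per kb, at the 44.2 percentile of all windows. Its only pair (summed signal 2.43) lay 36608 bp downstream of the start in an intron of the neighbour Apex2. The 2 synthase genes thus stood at opposite ends of the range in liver, at 1.66 per kb for Alas1 and 0.111 per kb for Alas2.

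Alad, on the minus strand of chromosome 4 (62170203 to 62180952), encodes the dehydratase that joins 2 molecules of aminolevulinate into porphobilinogen. It had the most brain peaks together with Hmox1, 3 each. The brain peak chr4:62181005-62181154 was centred 127 bp upstream of the Alad start, scored 32.7 (rank 3030) and had 4 liver borders within 100 bp but no pair. The brain peak chr4:62163333-62163482 scored 36.4 (rank 2367) but lay 97 bp upstream of a start of the neighbour Hdhd3. The third, with a score of 29.1, lay 114 bp upstream of a start of Pole3.
Both eWAT peaks of the Alad window, with scores of 10.1 and 12.2, lay nearest to Hdhd3, at 334 bp downstream and 2710 bp upstream of its start. The first stood at the lowest score of the list, 10.1, which 1211 peaks had. The second held AGGTCA, TGACNNNGC and TTATGTAA, the PAR bZIP and NFIL3 sequence, and had 3 liver borders. The Alad promoter peak of brain is printed on the plus strand as the site closest to the start of this gene, and none of the searched motifs was found in it.
Alad brain chr4:62181005-62181154: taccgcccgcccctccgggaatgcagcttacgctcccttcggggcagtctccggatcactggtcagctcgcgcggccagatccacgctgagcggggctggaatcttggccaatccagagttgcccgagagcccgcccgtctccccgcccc

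In liver, Alad held 47 borders (0.926 per kb, 256th of all windows) and 15 pairs. At 29.6 pairs per 100 kb its window was the 6th densest in pairs. Several of these pairs shared a minus border, so the 15 pairs are not 15 separate sites. Only 2 of the 15 pairs lay nearest to an Alad start, both in its introns, 2758 bp (summed signal 2.60) and 987 bp (1.48) downstream. The highest pair, with a sum of 3.40, lay at the start of 4933430I17Rik. The third pair by sum, at 2.19, lay 301 bp upstream of a start of Hdhd3. The brain peak at Hdhd3 held 3 pairs that shared their minus border.

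Uros, which closes the ring as uroporphyrinogen III synthase, had no eWAT peak and a single brain peak. That peak, chr7:140906436-140906585 with a score of 21.8 (rank 6985), lay 85 bp downstream of a start of Bccip and 4755 bp upstream of Uros, and had no liver border within 100 bp. Of the 23 liver borders, 7 lay nearest to a Uros start and 6 lay within 1 kb of a start of its coding transcripts. The pair chr7:140900669-140900689 (summed signal 2.58) lay 38 bp upstream of an inner Uros start, and a second pair (1.78) lay 425 bp upstream of the outermost start. That second pair lay within an intron of Bccip, in a simple repeat rich in CTC and CTG. The highest pair of the window (2.66) lay in an intron of Bccip.

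Urod, the uroporphyrinogen decarboxylase on the minus strand of chromosome 4 (116662570 to 116667018), was the gene at which the eWAT and brain peaks coincided. The eWAT peak was centred 81 bp and the brain peak 102 bp upstream of its only annotated start, and they overlapped by 129 bp. This was the single overlap among the 6 eWAT and 10 brain peaks, against 7.83% of all eWAT peaks that overlapped a brain peak and 6.61% of all brain peaks that overlapped an eWAT peak. The eWAT peak scored 22.3 (rank 1878 of 9016) and the brain peak 25.5 (rank 5169 of 10687). In liver, 5 borders lay within 100 bp of either centre, with p from 0.0309 to 0.0479 in the authors' deposited table. They formed 2 pairs of low signal (sums of 1.08 and 1.06, with 69.6% and 70.5% of all pairs higher) that shared their minus border. Peaks of eWAT and brain and liver borders thus met at this start. None of the 18 borders in the Urod window had a p-value of 0.01 or less. The eWAT sequence is printed on the plus strand, with its CACGTG in capitals.
Urod eWAT chr4:116667025-116667174: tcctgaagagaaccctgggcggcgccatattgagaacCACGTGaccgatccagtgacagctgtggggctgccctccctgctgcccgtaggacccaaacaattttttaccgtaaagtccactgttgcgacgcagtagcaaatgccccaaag

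Cpox, the coproporphyrinogen oxidase of the mitochondrial intermembrane space (chromosome 16, 58670321 to 58680504), had liver borders alone. Of its 18 borders, 17 lay nearest to its start, and its window held no other protein-coding gene. The median border signal of 1.11 was the highest of the 9 genes. They gathered in a group of 5 between 7636 and 7737 bp upstream and another 5 between 6123 and 6236 bp upstream. The first group formed 3 pairs with sums of 3.52, 3.30 and 3.02 (ranks 2171, 2493 and 3021 of 26535), and the second formed 1 pair with a sum of 2.70. The first 2 pairs are printed with capitals from the plus to the minus border, to show the second holding AGGTCA on the minus strand (TGACCT) between its borders and the first, a little downstream, holding none of the searched motifs.
Cpox liver pair chr16:58662594-58662620: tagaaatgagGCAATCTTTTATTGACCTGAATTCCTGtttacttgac
Cpox liver pair chr16:58662671-58662685: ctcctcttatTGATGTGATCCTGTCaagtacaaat

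Ppox, the protoporphyrinogen oxidase on chromosome 1 (173206121 to 173211317), had a brain peak scoring 36.4 (rank 2367), which shares the highest score of the 10 brain peaks. It lay 157 bp upstream of a start of B4galt3 and 11015 bp downstream of the Ppox start. Of the 24 liver borders, 5 lay nearest to Ppox. Its 3 pairs were weak, with sums from 0.719 to 0.793 and at least 87.6% of all pairs higher, and lay nearest to Adamts4 or Ufc1.

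Fech, the ferrochelatase on chromosome 18 (64616204 to 64648720), had no peak in eWAT or brain. Its 22 liver borders (0.303 per kb, at the 76.3 percentile) lay mostly in its own introns, 17 of 22. All 3 pairs were intronic. The highest, 4366 bp downstream of the start, had a sum of 3.06 (rank 2945). It held AGGTCA and CACGTG overlapping each other, and the AGGTCA ran across the minus border. The other 2, 9439 and 9458 bp downstream, shared a minus border and had sums of 2.42 and 1.85.

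Hmox1, the inducible heme oxygenase that cleaves heme to biliverdin, iron and carbon monoxide (chromosome 8, 77617490 to 77624495), had brain peaks at its start and upstream of it but no eWAT peak. The brain peak chr8:77617334-77617483 was centred 82 bp upstream of the start, scored 21.8 (rank 6985) and held CACGTG. The brain peak chr8:77613513-77613662, 3903 bp upstream, scored 25.5 (rank 5169) and held TGACNNNGC at 2 positions. The third, with a score of 18.2 (rank 9969), lay 316 bp upstream of a start of Mcm5 and had no liver border within 100 bp.

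Liver borders met both Hmox1 brain peaks. Of the 27 borders in the window, 19 lay upstream of the gene and 1 in its body. A group of 6 lay between 79 bp upstream and 143 bp downstream of the start. Of these, 5 lay within 100 bp of the centre of the promoter peak and made 3 pairs with sums of 2.78, 2.73 and 2.73 that share the minus border at signal 1.90 (p = 0.00998 in the authors' deposited table). Another 6 lay between 3389 and 4349 bp upstream, 4 of them within 100 bp of the centre of the upstream peak, with 1 pair (sum 1.22) that held the second of the TGACNNNGC matches. Another group of 4, between 9149 and 9650 bp upstream, held a pair with TGACNNNGC (sum 1.27) and no peak of eWAT or brain. Of the 47 pairs in the 9 windows, only these 2 held TGACNNNGC, against 3.14% of all pairs. The 2 Hmox1 peaks that its own start is nearest to are printed on the plus strand with those motifs in capitals (both TGACNNNGC matches read on the minus strand), because NRF2 and BACH1 are known to control Hmox1 through upstream elements of that core.
Hmox1 brain chr8:77613513-77613662: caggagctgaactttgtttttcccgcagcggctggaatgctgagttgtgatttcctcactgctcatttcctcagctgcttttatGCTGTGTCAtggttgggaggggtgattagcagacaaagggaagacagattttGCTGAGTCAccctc
Hmox1 brain chr8:77617334-77617483: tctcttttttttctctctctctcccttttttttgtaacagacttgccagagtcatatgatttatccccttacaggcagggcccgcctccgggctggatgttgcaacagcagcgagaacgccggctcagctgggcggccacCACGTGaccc

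**Figure D3:**
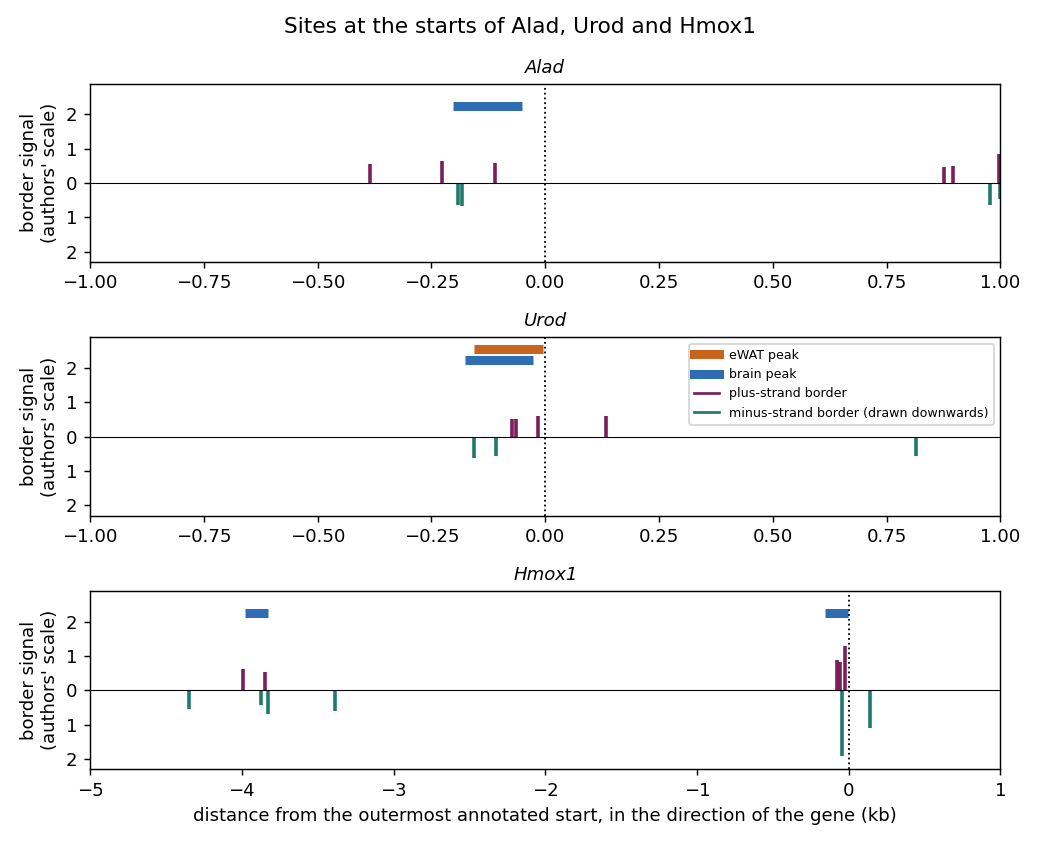
Peaks (thick bars) and liver borders (thin bars, length giving the signal on the authors' scale, plus strand upwards and minus strand downwards) by distance (kb) from the outermost start of Alad, Urod and Hmox1, the dotted line. Urod has an eWAT and a brain peak over the same borders, whereas the stretches drawn for Alad and Hmox1 hold brain peaks and no eWAT peak.

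Set side by side, the 9 windows ranked from Alas1 (1.66 borders per kb) and Alad (0.926) through Hmox1 (0.574), Ppox (0.531), Urod (0.405), Uros (0.360), Cpox (0.359) and Fech (0.303) to Alas2 (0.111). Without replicate values it is unknown which neighbours in this order differ beyond error. The median of all windows was 0.135, and 8 of the 9 lay above the 75th percentile. The same count of 8 lay above the 75th percentile in pairs per 100 kb, with Alas2 below in both. Of the 277 borders, 184 lay nearest to a heme gene's own start, and of the 47 pairs 24 did. The same shares over the windows of all genes were not computed.

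**Figure D4:**
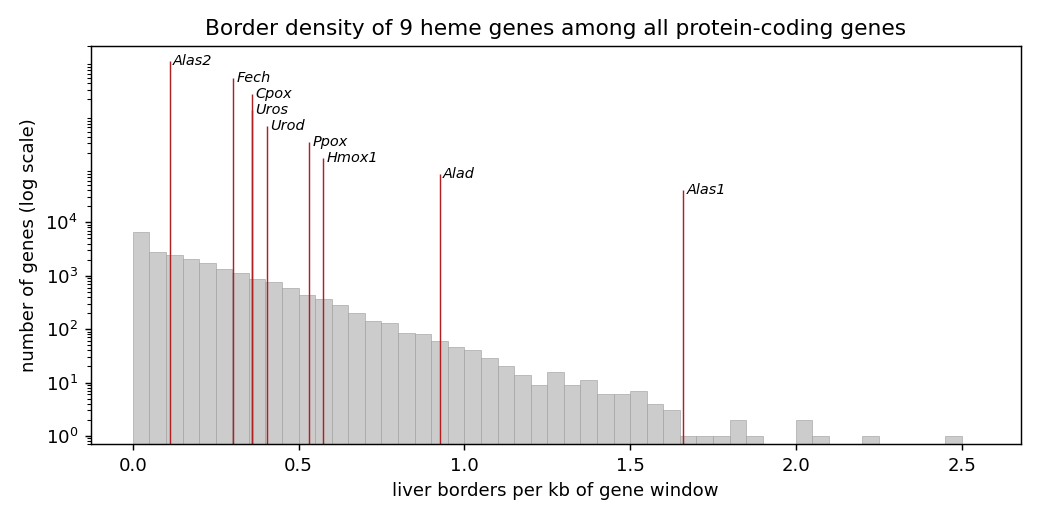
Histogram of liver borders per kb of window over all 22350 protein-coding genes (grey, log scale), with the 9 heme genes as red lines. Alas1 at 1.66 and Alad at 0.926 lie in the thin right tail, and Alas2 at 0.111 lies below the median of 0.135.

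In score, the peaks of the heme genes were spread through their lists. In eWAT, 3 of 6 scored above the list median of 14.2 (at Alas1, 2, and at Urod, 1), and in brain 4 of 10 scored above the median of 25.5 (at Alad, 3, and at Ppox, 1). Only the first Alas1 peak stood within the top 20% of its list. The brain scores were multiples of 3.636, and in such steps the 10 brain peaks measured 5 to 10 against a list minimum of 4. In eWAT the step was 1.013 and the 6 peaks measured 10 to 69 against a minimum of 10. Peaks near the minimum would be the first to leave the lists at a higher threshold.

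**Figure D5:**
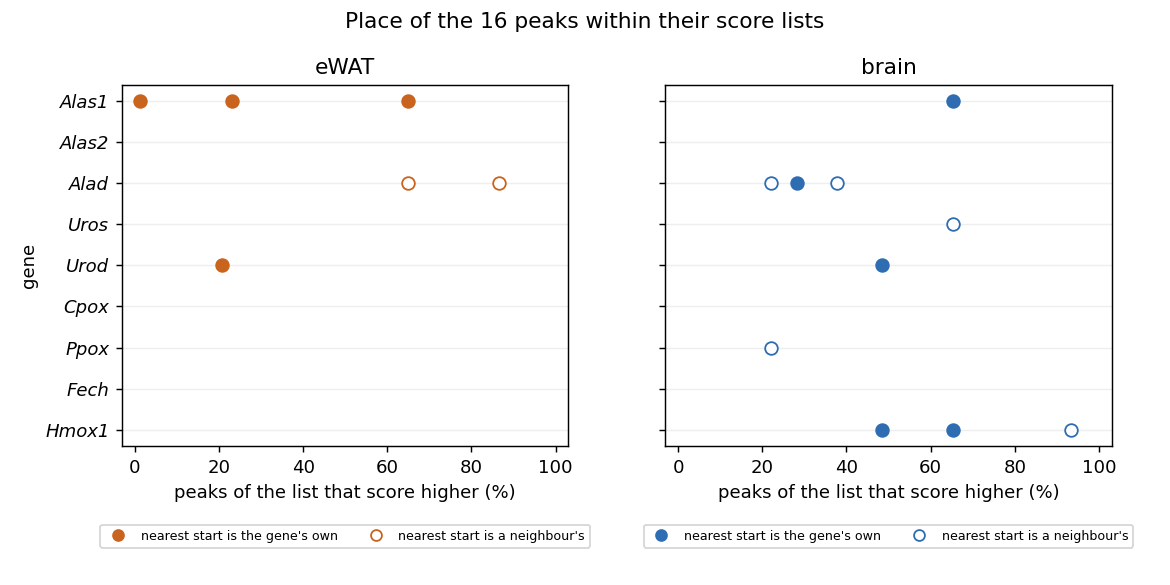
Share (%) of each list that scores higher than each of the 16 peaks, for eWAT and brain; 0 would be the top of the list, filled points have a heme gene as the gene with the nearest start and open points a neighbour. The first Alas1 eWAT peak, at 1.33%, stands apart from the other 15, which lie between 20.8% and 93.3%.

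Liver borders were found within 100 bp of the centre of 5 of the 6 eWAT peaks, against 30.0% of all eWAT peaks, and of 7 of the 10 brain peaks, against 36.4%. The exceptions were the eWAT peak in Hdhd3 and the brain peaks beyond the end of Alas1, at Bccip and at Mcm5. Of those 5 eWAT peaks, 3 lay in the Alas1 gene body, which held 4.16 borders per kb against 1.66 in its whole window. The share for peaks in equally dense stretches was not computed.

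The AGGTCA half-site was in 3 of the 6 eWAT peaks (Alas1, 2, and Alad, 1), against 19.0% of all eWAT peaks, and in 1 of the 10 brain peaks (at Hdhd3), against 11.7%. In the liver pairs it was in 7 of the 47 (2 at Alas1, 2 overlapping pairs at Cpox, and 1 each at Alas2, Ppox and Fech), against 7.83% of all pairs. The Ppox match lay outside its borders, in the 10 bp searched on each side, and the Fech match ran across a border. None of the 16 peaks and 47 pairs held the RORE, 2 half-sites spaced by 2 bases (DR2) or 2 spaced by 1 (DR1), motifs which occurred in 3.46%, 0.189% and 0.0665% of all eWAT peaks in 2.16%, 0.0842% and 0.0281% of all brain peaks and in 0.283%, 0.0113% and 0.0113% of all liver pairs. The E-box CACGTG, bound by CLOCK and BMAL1 and by other basic helix-loop-helix factors, was in 2 eWAT peaks (Alas1 and Urod) and 2 brain peaks (Urod and Hmox1), against 11.4% and 8.17% of the lists. The Urod match is the same sequence in both. TGACNNNGC was in 2 eWAT peaks and 2 brain peaks, against 7.95% and 7.90%. In the liver pairs, CACGTG was in 2 of the 47 (at Urod and Fech), against 7.08% of all pairs. TGACNNNGC was also in 2 of the 47 pairs (at Hmox1), against 3.14% of all pairs. Both strands were searched for every motif.

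Among 35 other genes of heme and iron handling, 15 had an eWAT peak in the window (28.7% of all genes did), 19 a brain peak (41.5% of all genes), 9 both and 10 neither. The shares of all genes with both or with neither were not computed. All 35 had a liver border (87.7% of all genes) and 29 a pair (51.0% of all genes), and the median border density was 0.405 per kb for the 9 genes and 0.338 per kb for these 35. By role, eWAT and brain peaks were found at 5 and 8 of 14 transport genes, at 4 and 4 of 7 iron genes, at 4 and 5 of 9 genes of sensing and control, at 1 and 1 of 3 further breakdown genes, and at 1 and 1 of 2 plasma scavengers. The highest eWAT score was at Slc25a39, a mitochondrial carrier required for heme synthesis, at 94.2 (rank 57), 618 bp upstream of its start. Its brain peak, at 61.8 (rank 519) and 610 bp upstream, covered nearly the same bases and was also the highest brain score of these genes. Next in eWAT came Aco1, an iron-regulatory protein, at 43.6 (rank 421), but that peak and the strongest liver pair of the 35 genes (sum 9.56, rank 230) lay at the same place within the neighbour Ddx58. Clpx, a mitochondrial unfoldase that acts on aminolevulinate synthase, had an eWAT peak of 22.3 in an intron, 6329 bp before its nearest inner start, a brain peak of 50.9 located 8 bp upstream and a liver pair of 4.40 (rank 1366).

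In eWAT, Lonp1, a mitochondrial protease, followed with 17.2, for a peak nearest to a start of Rpl36. The eWAT peaks of Hp, the plasma protein haptoglobin, and of the mitochondrial glycine carrier Slc25a38 both scored 14.2 and lay 11 bp downstream and 68 bp upstream of their own starts. In brain, the heme transporter Slc48a1 (58.2) and Flvcr2 (50.9) had peaks nearest to Rapgef3 and Ttll5, while that of Tfrc, the transferrin receptor (43.6), lay 6 bp upstream of its own start. Hp and the mitochondrial iron importer Slc25a37 shared the next score, at rank 1821, the Hp peak lying 12 bp downstream of a start of Txnl4b and 13268 bp from that of Hp, and the Slc25a37 peak 70 bp downstream of its own start. In liver, the highest pairs after Aco1 were at Slc25a37 (6.49), Abcb10 (6.12), the iron transporter Slc11a2 (4.84), Clpx and Hp (3.30), all nearest to their own starts except that of Slc11a2, which lay nearest to Mettl7a2. Ppargc1a, the coactivator known to induce Alas1 in liver, had no peak in eWAT or brain and 10 liver pairs, the highest at 2.02. Its window was long, and its border density of 0.3 per kb was below the median of 0.338 for the 35 genes.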

How the data were processed

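The members and the gene list beside them were chosen with earlier results of these data known. Per the labels' protocols, tissue was crosslinked and immunoprecipitated, and ChIP-exo DNA was trimmed by exonucleases. Per the submitters' processing notes, the build was mm9, and Bowtie 0.12.8 (ChIP-seq), Bowtie 1.1.1 (ChIP-exo) and HOMER were used, with no roles stated. How sites were called, at which threshold, and whether replicates were pooled beforehand is not given in the sources used here. The score of each deposited peak has no stated unit. Per the file headers, each border carries a signal, of unstated scale, and a p-value, which in the deposited list ran from 0.005 to 0.05.

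Peaks were placed by their centre and borders by their position, in windows of 20 kb around gene bodies (GENCODE vM1), and distances to a gene's own start run from its outermost annotated start. Motifs were searched on both strands in whole peaks and in pairs with 10 bp on each side. AGGTCA and TGACNNNGC can overlap, as can CACGTG and AGGTCA. Named were all 9 members, all their peaks, their strongest pairs and, of the 35 other genes, up to 6 per tissue by best site; Ppargc1a and the other neighbours were named beyond that rule. Symbols of 2 genes (Flvcr1, Flvcr2) were matched through RefSeq synonyms. Python 3.11.15, pandas 2.3.3 and pysam 0.24.0 were used, and the counting was tested on simulated data. No test between groups was run, since each group had 1 list.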

Additional observations from a re-analysis of the deposited data

How the results depend on the processing

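Of 32 alternatives tried over 8 counts, 23 kept the count within 1.5 times and 9 did not. Restricting sites to 1 kb around a coding start was an alternative chosen after seeing the data. It left heme genes numbering 1 in eWAT, 3 in brain and 4 for liver pairs, against 3, 6 and 9 in the 20 kb windows. The shares of all genes fell as well, to 3.06%, 17.7% and 18.8%, against 28.7%, 41.5% and 51.0%. With brain peaks above the median score or above the 75th percentile, 2 genes (Alad and Ppox) remained in either case, against 26.4% and 17.8% of all genes. With borders at a p-value of 0.01 or less, 3 genes had a pair (Alas1, Alas2 and Uros; 7.05% of all genes), 0 of 6 eWAT peaks had a border (10.5% of all eWAT peaks), against 5, and 2 of 10 brain peaks did (9.83% of all brain peaks), against 7. That setting keeps 79962 borders and 1515 pairs, so fewer sites can match. Counting centres within 500 bp as shared gave 2 eWAT peaks (9.07% of all), against 1. No paired analysis was possible because each group has a single list with no value per replicate, and for the same reason no replicate could be left out. Depth is unknown, so an absent peak was not detected at that list's threshold and is not shown to be absent.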

Other observations

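In liver, the gene body of Alas1 held 4.16 borders per kb, and 5 genes of 2 kb or more had a higher density. They were Pck1, the gluconeogenic enzyme, at 5.94 per kb, Tat, the tyrosine aminotransferase, at 5.87, Alb at 5.41, Errfi1 at 4.54 and Gdf15 at 4.24. These 5 were named after their values were seen. Whether these genes were transcribed at that time was not measured in these files.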
